A study of Homo sapiens with 4 samples.

Results

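The MYC, MAX and MXD network is a family of transcription factors that compete for 1 partner. MAX pairs through its helix-loop-helix leucine zipper with MYC, MYCN or MYCL, and these pairs bind the E-box CACGTG and activate genes of growth, ribosome production and cell division. MAX also pairs with MXD1, MXI1, MXD3, MXD4, MNT or MGA, and these pairs occupy the same E-box and repress, by recruiting SIN3 corepressors or, for MGA, a Polycomb complex. In prostate cancer MYC is well known as an oncogene of luminal tumour cells, and MYCN as a driver of aggressive and neuroendocrine disease.

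The network was examined in RNA-Seq counts of 4 libraries of cultured human prostate cancer cells. LNCaP95 is an androgen-independent derivative of the LNCaP line, and LN95(KO) was made from LNCaP95 with CRISPR vectors against UGT2B17, a gene for an androgen-conjugating enzyme. Both were grown untreated in RPMI1640 with charcoal-stripped serum, with 2 libraries of LNCaP95 (genotype WT, replicates 1 and 2) and 2 of LN95(KO) (genotype UGT2B17 KO, replicates 3 and 4). The number of knockout clones behind the 2 libraries and whether the libraries of a group came from separate cultures were not given, and the labels name LN95 as the line of all 4 while the series text writes LNCaP for the knockout. The p-values therefore measure only the spread between these libraries. Members were taken by symbol: all 10 listed factors were found among the 60880 genes counted, and all 10 passed the filter on low counts that left 15626 genes for testing.

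Gene reads numbered 17330338 to 18813193 per library, and 3 counts corresponded to 0.160 to 0.173 CPM (counts per 1000000 gene reads, scaled by the trimmed mean of M values, TMM, except in this floor and in the marker sums). Unaligned reads were 3.85% and 3.96% of the LNCaP95 libraries but 8.05% and 7.71% of those of LN95(KO), and their part in any result below was not tested. UGT2B17 had 2788 and 2748 counts in LNCaP95 against 21 and 20 in LN95(KO), or -7.04 on the log2 scale (SE 0.10, edgeR adjusted p 1.18e-18). All 8 luminal prostate markers listed passed the filter and summed to 2958 to 2960 CPM in LNCaP95 and 3342 to 3507 CPM in LN95(KO); 4 rose and 3 fell (median log2 fold change 0.23), with 3 called higher, KLK3 and TMPRSS2 among them, and FOLH1 called lower. The 11 markers of other cell types found summed to 35.4 to 35.7 CPM in LNCaP95 and 36.4 to 39.6 CPM in LN95(KO). Of 5 tested 2 rose (KRT14 and COL1A1) and 1 fell (median -0.05). Here 60.0% passed and 40.0% were called, beside 59.8% and 18.0% of all genes tested. Of the 11 found, CHGA and CD3E had 0 counts in all 4 libraries and KRT5, TP63, INSM1 and PTPRC had at most 3 counts in any. KRT14, a basal keratin, had 1 and 2 counts against 17 and 20, COL3A1 changed by -0.19 without passing, and the part of these markers in the results was not tested. In bulk RNA, fewer cells that express a gene and less RNA per cell cannot be told apart.

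The question of the comparison was which network factors differ where UGT2B17 is knocked out. MYC itself did not differ beyond the replicate error, whereas its paralogs moved apart: MYCN fell to 0 counts and MYCL rose 2.66-fold. Among the repressors MXD3 rose 4.89-fold and MXD4, the most abundant of them, fell to 0.647 of its LNCaP95 level. MXD1 rose and MAX and MGA fell by smaller amounts, and MXI1 and MNT did not pass the test. A difference was said to pass at an adjusted p under 0.05 (edgeR quasi-likelihood test, Benjamini-Hochberg adjustment over all genes tested) and was called when it also exceeded 2-fold. Of the 10 factors 3 were called, 2 higher (MYCL and MXD3) and 1 lower (MYCN), beside 18.0% of all genes tested, or 8.86% higher and 9.13% lower. At an adjusted p under 0.05 with no fold criterion 7 of 10 passed, 3 higher and 4 lower, beside 59.8% of all genes (29.8% higher and 30.1% lower). The libraries of the groups did not overlap in CPM for 8 of 10, beside 79.8% of all genes. These last counts over the family were close to the background.

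**Figure D1:**
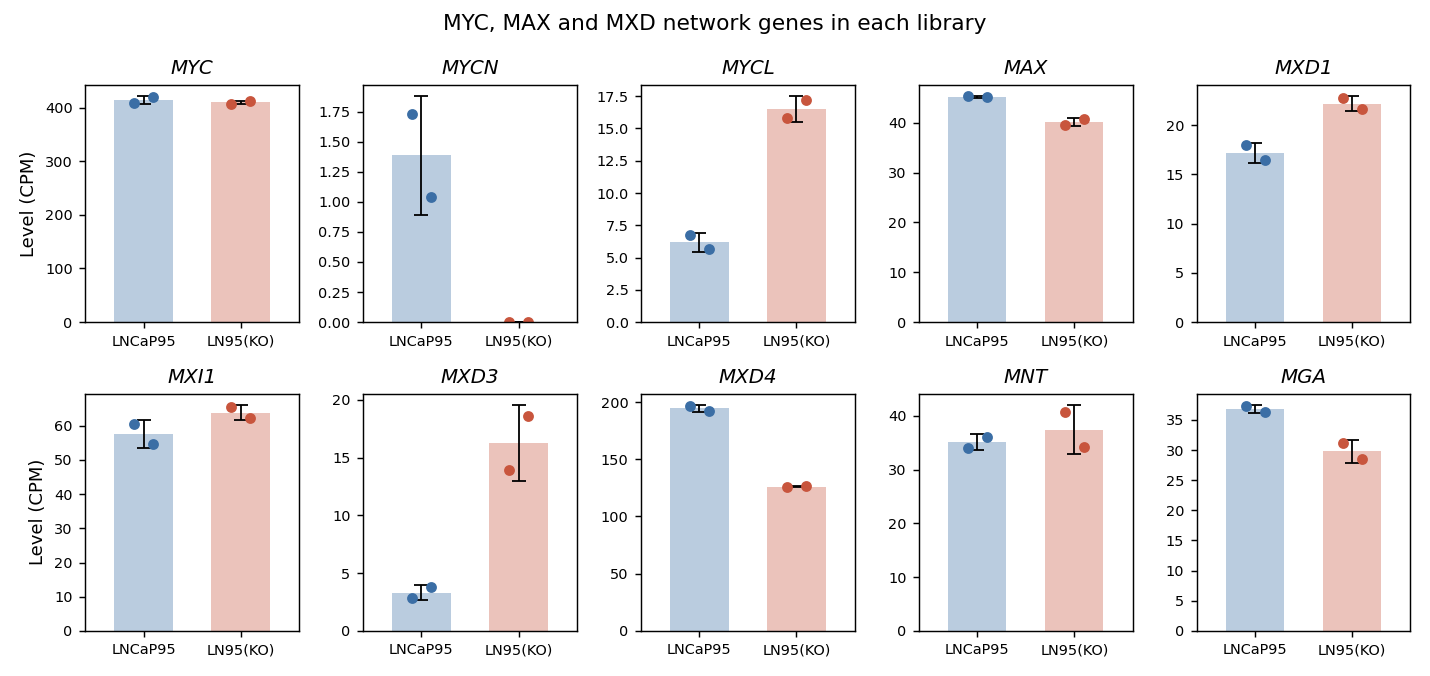
Level of each network gene in CPM (linear axis from 0, a different scale in each panel) in LNCaP95 (blue) and LN95(KO) (red). Points are the 4 libraries, bars the mean and error bars the SD of 2 libraries; the groups overlap for MYC and MNT and are separate for the other 8 genes.

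MYC is the family member that most dividing cells use. It lies on the plus strand of chromosome 8 (ENSG00000136997, GRCh37 positions 128747680 to 128755197). MYC had 7547 and 7675 counts in the LNCaP95 libraries against 7207 and 7519 in those of LN95(KO). The level was 414 ± 7.17 CPM in LNCaP95 and 410 ± 3.42 CPM in LN95(KO) (SD, n = 2 libraries each), and the ranges of the groups overlapped. Its log2 fold change was -0.02 (SE 0.05, 95% interval -0.11 to 0.08, adjusted p 0.790, edgeR), so these libraries bound the change to between 0.925-fold and 1.06-fold. Scaling by library totals turned the sign (0.04, adjusted p 0.464), as did leaving out LNCaP95 replicate 2 (0.0015, adjusted p 0.989), with no call in either. Per length of its annotated exons, MYC was higher than 97.0% of tested genes in LNCaP95 and 96.5% in LN95(KO).

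MYCN, the paralog of neural crest and neuroendocrine tumours, lies on chromosome 2 (ENSG00000134323, plus strand, 16080672 to 16087129). It had 32 and 19 counts in LNCaP95, a level of 1.39 ± 0.492 CPM, and 0 counts in both LN95(KO) libraries. Against a floor of 3 counts over both LN95(KO) libraries together it was at least 16.6-fold lower (adjusted p 5.5e-06, edgeR). Even in LNCaP95 it was among the weakest members, higher per length than 15.8% of tested genes. Genes beside it were expressed in both lines. NBAS, an upstream neighbour, had 912 and 931 counts in the LNCaP95 libraries against 696 and 668 in those of LN95(KO), or -0.40 on the log2 scale (SE 0.07, adjusted p 7.7e-05). DDX1, the helicase gene often co-amplified with MYCN and named after its value was seen, fell by 0.21 (SE 0.06, adjusted p 0.00592). The antisense transcript MYCNOS had 1 and 4 counts against 0 and 0 and was not tested. MYCNOS overlaps 3.56% of MYCN exon bases, and strand was not used in counting.

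MYCL, first found amplified in small cell lung cancer, lies on chromosome 1 (ENSG00000116990, minus strand, 40361100 to 40367928). It had 124 and 104 counts in the LNCaP95 libraries against 280 and 314 in those of LN95(KO), so every LN95(KO) library was above both LNCaP95 libraries. The level rose from 6.20 ± 0.736 to 16.5 ± 0.980 CPM, or 1.41 on the log2 scale (SE 0.13, edgeR adjusted p 3.475e-08). Over 10 alternative fits it lay between 1.30 and 1.54 and stayed called. MFSD2A, a lipid transporter gene in the same neighbourhood, rose by 0.91 (SE 0.14, adjusted p 2.738e-05) from 98 and 90 to 172 and 174 counts, short of 2-fold. The other listed neighbours of MYCL, named after their values were seen, did not pass. These were TRIT1 (0.10, edgeR adjusted p 0.267), BMP8B (0.04, 0.861) and PPT1 (0.01, 0.920).

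MAX, the obligate partner, lies on chromosome 14 (ENSG00000125952, minus strand, 65472892 to 65569413). It had 836 and 826 counts in the LNCaP95 libraries against 701 and 745 in those of LN95(KO). The level went from 45.2 ± 0.139 to 40.2 ± 0.861 CPM, or -0.17 on the log2 scale (SE 0.07, edgeR adjusted p 0.0386). That result was marginal: the adjusted p was 0.242 with DESeq2, 0.157 with library totals, and 0.119 to 0.157 without LNCaP95 replicate 1, LNCaP95 replicate 2 or LN95(KO) replicate 3. Exons of other genes, mainly FNTB, cover 16.1% of MAX exon bases, and FNTB itself changed the other way (0.41, SE 0.15, adjusted p 0.0241).

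The 4 MXD repressors recruit SIN3 and are best known from cells leaving the cycle, with the exception of MXD3, which is expressed in dividing cells. MXD3 lies on chromosome 5 (ENSG00000213347, minus strand, 176728462 to 176739758). It had 53 and 69 counts in the LNCaP95 libraries against 246 and 339 in those of LN95(KO). Both LN95(KO) libraries were over 3 times as high as either LNCaP95 library, although they also differed from each other. The level rose from 3.32 ± 0.633 to 16.2 ± 3.31 CPM, or 2.29 on the log2 scale (SE 0.17, edgeR adjusted p 3.789e-09), with 2.07 to 2.50 over 10 alternative fits. The count is uncertain in its amount, since 43.7% of MXD3 exon bases lie under exons of PRELID1 (opposite strand) or RAB24 (same strand). PRELID1 had 1101 and 1040 counts in the LNCaP95 libraries against 1492 and 1798 in those of LN95(KO), a smaller rise of 0.65 on the log2 scale, and RAB24 fell by 0.99.

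MXD4 moved the other way and had the highest level per length of the MXD genes in both lines. It lies on chromosome 4 (ENSG00000123933, minus strand, 2249159 to 2263836) and had 3628 and 3525 counts in LNCaP95 against 2221 and 2304 in LN95(KO). The level fell from 195 ± 2.90 to 126 ± 0.543 CPM, or -0.63 on the log2 scale (SE 0.05, edgeR adjusted p 6.786e-09), short of 2-fold and not called. The groups were far apart relative to their spread, and the estimate stayed between -0.67 and -0.57 over 10 alternative fits. MXD1, the founding member of the group (chromosome 2, ENSG00000059728, plus strand, 70124820 to 70170077), had 331 and 302 counts in the LNCaP95 libraries against 402 and 395 in those of LN95(KO). It rose by 0.37 on the log2 scale (SE 0.09, adjusted p 0.00259, edgeR), and its adjusted p was 0.0592 with DESeq2. MXI1, on the chromosome 10 arm that prostate tumours often lose (ENSG00000119950, plus strand, 111967363 to 112047123), had 1117 and 1003 counts against 1158 and 1136, and the groups did not overlap. Its log2 fold change of 0.15 (95% interval 0.01 to 0.29, adjusted p 0.0641, edgeR) passed only under library totals (0.20, adjusted p 0.0146) and without LNCaP95 replicate 1 (0.22, adjusted p 0.0392).

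MNT and MGA are the large constitutive repressors of the network. MNT, a broadly expressed MAX partner (chromosome 17, ENSG00000070444, minus strand, 2287367 to 2304398, with 12.2% of its exon bases under another gene), had 628 and 662 counts in the LNCaP95 libraries against 720 and 624 in those of LN95(KO), and the groups overlapped. Its log2 fold change was 0.09 (95% interval -0.08 to 0.27, adjusted p 0.357, edgeR), and it moved with the LN95(KO) library left out: -0.03 without replicate 3 and 0.22 without replicate 4 (adjusted p 0.0379). MGA, which couples MAX to the Polycomb complex PRC1.6 (chromosome 15, ENSG00000174197, plus strand, 41913332 to 42065279), had 688 and 665 counts against 551 and 519. The groups did not overlap, and the level fell by 0.31 on the log2 scale (SE 0.08, adjusted p 0.00226, edgeR).

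**Figure D2:**
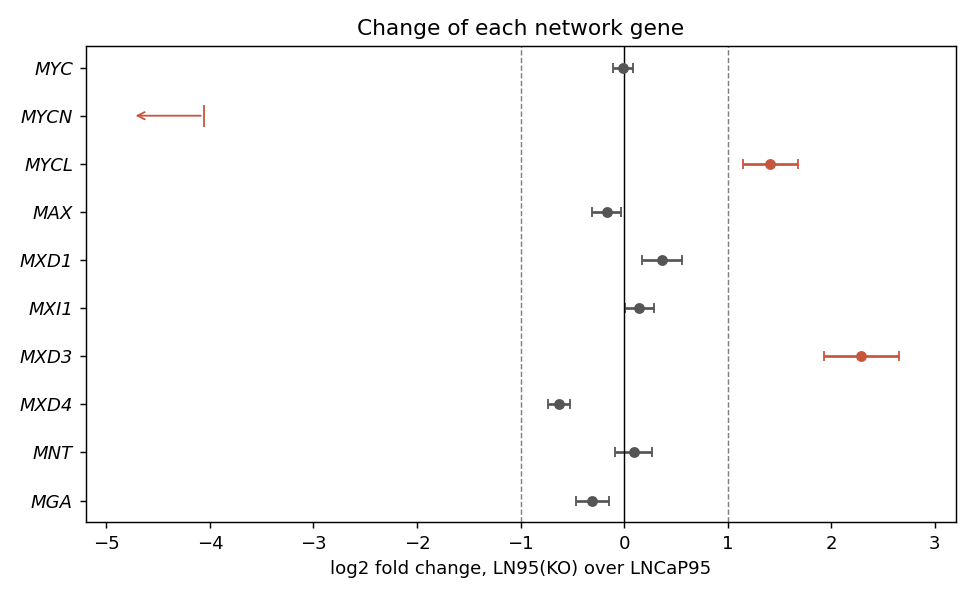
log2 fold change of each network gene, LN95(KO) over LNCaP95, with its 95% interval from the edgeR fit; red marks called genes, dashed lines a 2-fold change, and the arrow for MYCN starts at the bound of 16.6-fold lower. MXD3 and MYCL lie right of the 2-fold line, MXD4 lies between 0 and the line on the left, and MYC at 0.

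Promoters are shown for the 3 called genes and for MXD4, which moved in different directions, so that their E-box and E2F matches can be compared. Each is the 250 bases before the start of transcription in the RefSeq window (GRCh38.p14, printed 5′ to 3′ on the gene's strand), and capitals mark matches to CACGTG or, on either strand, to the E2F motifs TTTCCCGC, TTTGGCGC, TTTCGCGC and TTTGCCGC.
MYCN, chr2:15940300-15940549, plus strand: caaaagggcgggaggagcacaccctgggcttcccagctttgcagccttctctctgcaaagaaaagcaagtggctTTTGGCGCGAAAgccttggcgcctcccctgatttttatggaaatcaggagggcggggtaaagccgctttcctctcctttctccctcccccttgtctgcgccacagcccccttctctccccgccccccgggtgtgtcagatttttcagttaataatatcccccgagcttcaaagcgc
MYCL, chr1:39901918-39902167, minus strand: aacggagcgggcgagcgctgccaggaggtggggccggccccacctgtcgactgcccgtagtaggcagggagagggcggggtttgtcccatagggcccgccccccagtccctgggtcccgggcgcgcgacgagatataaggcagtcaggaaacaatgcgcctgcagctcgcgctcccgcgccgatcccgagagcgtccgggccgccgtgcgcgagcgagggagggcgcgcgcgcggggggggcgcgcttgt
MXD3, chr5:177312753-177313002, minus strand: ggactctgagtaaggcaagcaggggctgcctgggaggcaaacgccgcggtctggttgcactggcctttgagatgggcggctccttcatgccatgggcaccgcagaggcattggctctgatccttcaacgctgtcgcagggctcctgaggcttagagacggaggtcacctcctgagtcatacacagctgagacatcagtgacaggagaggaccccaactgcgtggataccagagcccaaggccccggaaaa
MXD4, chr4:2262110-2262359, minus strand: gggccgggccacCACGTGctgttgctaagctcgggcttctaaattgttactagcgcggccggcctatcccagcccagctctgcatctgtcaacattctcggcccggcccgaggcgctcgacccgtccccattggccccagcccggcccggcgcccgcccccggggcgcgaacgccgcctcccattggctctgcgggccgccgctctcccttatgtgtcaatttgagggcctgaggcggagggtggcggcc

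MYCN held 2 overlapping E2F matches, TTTGGCGC on the plus strand and TTTCGCGC read on the other strand, beginning 176 and 172 bases before its start. MXD4 held 1 E-box, 238 bases before its start, and the windows of MYCL and MXD3 held neither motif. Of the 9 members with a RefSeq window (14 windows, since MAX, MXI1 and MGA have several), 2 windows held the E-box, those of MXD4 and MNT, and 2 an E2F match, those of MYCN and MGA. Among all 35116 windows of this length, 6.34% held the E-box and 2.79% an E2F match.

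Levels between genes were compared per length, as the TMM-scaled CPM per kilobase of annotated exon (RPKM). In LNCaP95 the order was MYC (67.8 ± 1.17 RPKM), MXD4 (28.3 ± 0.423), MXI1 (9.76 ± 0.689), MAX (7.22 ± 0.0222), MNT (4.03 ± 0.172), MXD1 (2.71 ± 0.161), MGA (1.83 ± 0.0341), MYCL (1.25 ± 0.148), MXD3 (0.700 ± 0.134) and MYCN (0.503 ± 0.179), and only the last pair overlapped in range. MYC (67.1 ± 0.559 RPKM), MXD4 (18.3 ± 0.0791), MXI1 (10.8 ± 0.380), MAX (6.43 ± 0.138) and MNT (4.30 ± 0.527) stood in the same order in LN95(KO). The order differed below MNT, where MXD1 (3.49 ± 0.119 RPKM), MXD3 (3.42 ± 0.697) and MYCL (3.33 ± 0.197) could not be ranked against each other within their spread. MGA followed at 1.48 ± 0.0948 RPKM and MYCN stood at 0. MXD3, next to last in LNCaP95, lay within the spread of MXD1 in LN95(KO), and above it, at 7.12 against 3.98 RPKM, when the length of the longest transcript was used. Reads on more than 1 gene are left out of the counts, but shared exon bases stay in the length. The RPKM of MXD3 (43.7% of bases shared), MAX (16.1%) and MNT (12.2%) may therefore be too low, and their ranks are uncertain.

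MYC supplied 53.9% and 55.3% of the summed RPKM of the 10 genes in LNCaP95 and 56.4% and 56.7% in LN95(KO). The share of MXD4 went from 23.0% and 22.6% to 15.4% in each LN95(KO) library. Within the 4 MXD genes, MXD3 held 1.43% and 1.95% of the LNCaP95 total and 8.18% and 10.8% of that in LN95(KO). The 3 MYC genes together were at 69.5 ± 0.847 RPKM in LNCaP95 and 70.4 ± 0.757 RPKM in LN95(KO), a difference about as large as their spread. The 6 repressors together were at 47.3 ± 1.00 RPKM and 41.8 ± 0.345 RPKM, and their libraries did not overlap. The log2 ratio of the MYC sum to the repressor sum was 0.52 and 0.59 for the LNCaP95 libraries against 0.73 and 0.77 for LN95(KO), a difference of 0.20 for which no p is given. It was 0.17 with the length of the longest transcript in place of the union of exons. These are messages and not proteins, and per-length levels depend on which annotated exons the cells use. The shares of MXD3, the repressor sum and the ratio also carry the limit of shared exon bases.

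**Figure D3:**
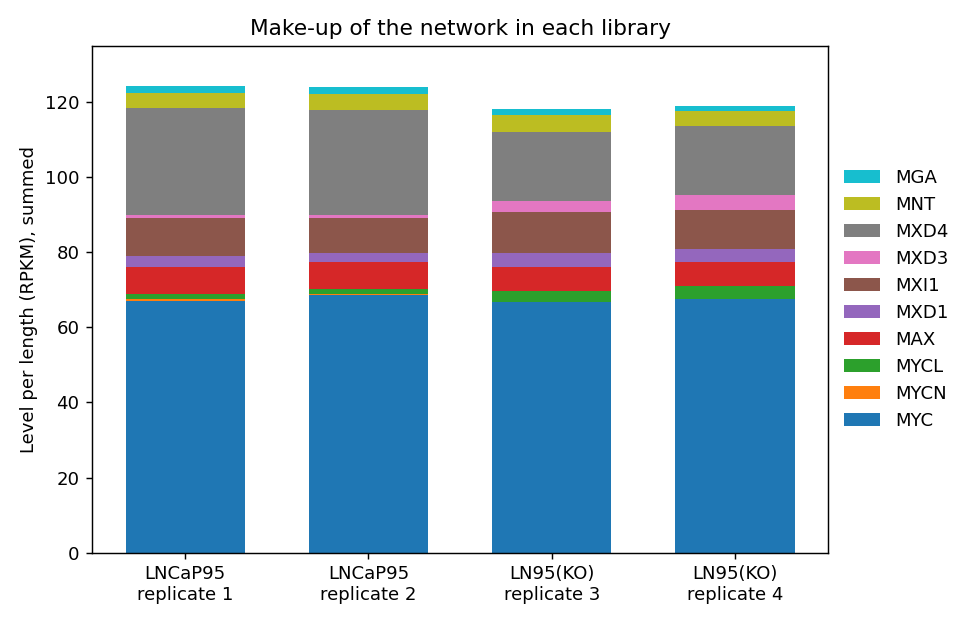
Level per length (RPKM) of the 10 network genes stacked for each of the 4 libraries, on an axis from 0. MYC (bottom, blue) stays between 66.7 and 68.6 RPKM in all 4, MXD4 (grey) is thinner and MXD3 (pink) thicker in the 2 LN95(KO) libraries.

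Partners of the network were read by lists, each beside the 59.8% of all genes tested that passed (29.8% higher and 30.1% lower) and the 18.0% that were called. MLX is the MAX-like partner of the glucose sensors MondoA (MLXIP) and ChREBP (MLXIPL), which compete in the wider network. Of 5 genes in that arm, 3 passed the test, all higher, and 0 were called (median 0.61, beside -0.01 over all genes tested). MLXIP had 1331 and 1269 counts in the LNCaP95 libraries against 2148 and 2169 in those of LN95(KO), or 0.76 on the log2 scale (SE 0.05, adjusted p 1.908e-09), and MLX rose by 0.50 (SE 0.05, with 18.2% of its exon bases under PSMC3IP). ARRDC4, a MondoA target, rose by 0.74 (SE 0.09), whereas TXNIP, the other target listed, had 2793 and 2648 counts in LNCaP95 but 3075 and 5044 in LN95(KO) and did not pass (0.61, SE 0.33, adjusted p 0.255).

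Corepressors of the MXD and MNT proteins, the SIN3 and NCOR group, passed the test in 8 of 13 cases, 8 higher and 0 lower, with 0 called and a median log2 fold change of 0.22. The share that passed, 61.5%, was near the 59.8% of all genes. NCOR1, a nuclear corepressor, rose by 0.55 (SE 0.05), RBBP7 and SAP30, subunits of the SIN3 deacetylase complex, rose by 0.59 (SE 0.07) and 0.80 (SE 0.12), and the deacetylase HDAC1 rose by 0.25 (SE 0.05). Of the MGA partners in PRC1.6, 10 of 11 were tested, 3 rose, 1 fell and 0 were called (median 0.14). RNF2, the catalytic ring protein, rose by 0.50 (SE 0.07), CBX3 by 0.22 and TFDP1 by 0.17, while RYBP fell by 0.20. RING1 had 0 counts in all 4 libraries and did not enter the test. Whether its message was absent or its reads were left out in mapping or counting was not tested. Of 14 germ cell genes that PRC1.6 is known to silence, 11 were too low to test, and 0 of the other 3 (TDRD1, TDRKH and STAG3, median 0.10) passed. TDRD1 went from 7 and 11 to 24 and 12 counts (edgeR adjusted p 0.061). MAEL, too low to test, had 13 and 7 counts in LNCaP95 against 1 and 1 in LN95(KO).

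Of the cofactors that MYC recruits, 19 were tested, and 7 rose and 3 fell, none by 2-fold, with a median of 0.06. The acetyltransferase KAT2A rose by 0.37 (SE 0.05) and the ATPase RUVBL2 by 0.35 (SE 0.05), and the acetyltransferase CREBBP fell by 0.22 (SE 0.07). Of 22 regulators of MYC protein turnover, 9 rose and 5 fell, and 5 were called, all higher. The shares that passed (63.6%) and were called (22.7%) were near the 59.8% and 18.0% of all genes. The 5 called were AURKB, AURKA, UBE2C, CIP2A and PLK1, the last named after its value was seen. AURKA and CIP2A are known to stabilise MYC proteins, but AURKA, AURKB, PLK1 and UBE2C are foremost kinases and a ubiquitin-conjugating enzyme of mitosis. CIP2A, an inhibitor of the phosphatase PP2A, had 69 and 61 counts in the LNCaP95 libraries against 325 and 389 in those of LN95(KO), or 2.49 on the log2 scale (SE 0.14, edgeR adjusted p 6.149e-11). AURKA had 321 and 279 counts against 1796 and 2204, or 2.77 on the log2 scale (SE 0.09). The median of the list was 0.11.

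Genes commonly listed as MYC targets were read by function. Of 35 tested genes of the nucleolus and ribosome assembly, 18 rose and 3 fell, 0 were called and the median was 0.23, and the 60.0% that passed was near the 59.8% of all genes. FBL, the methyltransferase of ribosomal RNA, rose by 0.80 (SE 0.06) and NPM1, the nucleolar chaperone, by 0.61 (SE 0.05), from 756 ± 14.9 to 1151 ± 58.3 CPM, although it has many near-identical pseudogene copies. POLR1B, a subunit of RNA polymerase I, rose by 0.53 (SE 0.07) and IMP4, of the small subunit processome, by 0.45 (SE 0.06). Of 36 targets in metabolism and translation, 17 rose and 7 fell, with 4 called higher, 1 called lower and a median of 0.18. The shares were 66.7% passed and 13.9% called, beside 59.8% and 18.0% of all genes. SORD, which oxidises sorbitol, rose by 1.10 (SE 0.05), and IMPDH2, of guanine nucleotide synthesis, by 1.11 (SE 0.06, with 32.8% of its exon bases under other genes). NDUFAF4, an assembly factor of respiratory complex I, fell by 1.31 (SE 0.07), and SHMT2, of mitochondrial folate metabolism, fell by 0.59 (SE 0.04) without a call. LDHA and TMEM97 were also called higher, by 1.45 each, and are named after their values were seen.

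Of 14 cell cycle targets tested, 13 rose and 1 fell, 11 were called higher and 1 lower, and the median was 1.67. The share called was 85.7%, beside 18.0% of all genes. CKS2 rose by 2.18 (SE 0.10) and CKS1B by 1.80 (SE 0.09), both small subunits of cyclin-dependent kinases. PLK4, the kinase of centriole duplication, rose by 2.93 (SE 0.17). CCND2, cyclin D2, was the member that fell, from 1042 and 1014 to 445 and 480 counts (-1.12, SE 0.07, with 13.8% of its exon bases under other genes). Many of these genes are also known targets of E2F factors. Of 8 tested genes listed as repressed by MYC, with or without MIZ1, 4 rose and 1 fell (median 0.33), and 1 was called. The shares were 62.5% passed and 12.5% called, beside 59.8% and 18.0% of all genes. The called gene, NDRG1, which is also induced by androgen, went from 412 and 345 to 3316 and 2874 counts (3.07, SE 0.10). CDKN1A, the inhibitor p21, rose by 0.52 (SE 0.06) NDRG4 by 0.78 (SE 0.28) and NDRG2 fell by 0.45 (SE 0.07).

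Of 13 tested neighbours of the MYC, MYCN and MYCL loci, 4 rose and 3 fell, 3 were called higher and the median was 0.10. The shares that passed (53.8%) and were called (23.1%) were near the 59.8% and 18.0% of all genes. PVT1, the long noncoding RNA downstream of MYC and named after its value was seen, had 852 and 938 counts in the LNCaP95 libraries against 932 and 942 in those of LN95(KO) and did not pass (0.10, SE 0.07, adjusted p 0.226). CASC11, CASC8 and POU5F1B were the 3 called, all from the neighbourhood of MYC and with counts of at most 61 per library. The whole list held 1 call with DESeq2 and 1 in the fit without LN95(KO) replicate 4. CASC8 had 31 and 18 counts against 59 and 61, CASC11 4 and 10 against 17 and 29, and POU5F1B 19 and 13 against 26 and 39. LRATD2, which lies farther from MYC on the same side as CASC8 and POU5F1B, fell by 0.22 (SE 0.05) with 24.6% of its exon bases under PCAT1.

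**Figure D4:**
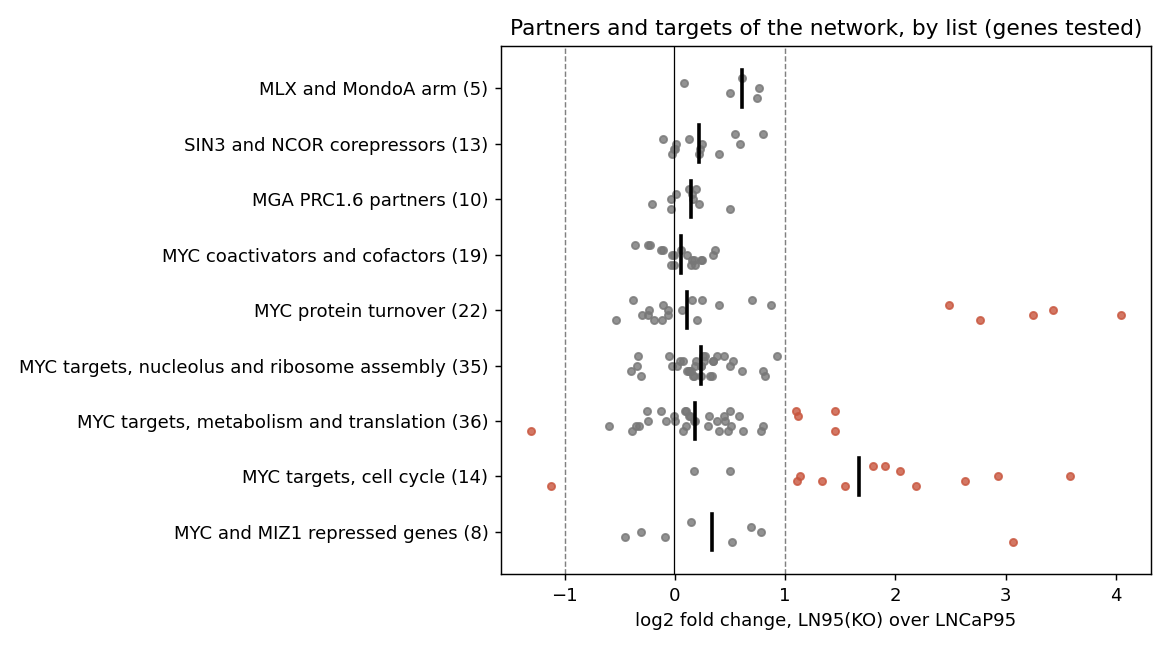
log2 fold change of each tested gene in 9 lists of network partners and MYC targets (number tested in brackets), LN95(KO) over LNCaP95. Red points are called genes, black bars list medians, the thin line the median of all genes tested (-0.008) and dashed lines a 2-fold change. Only the cell cycle targets have their median (1.67) beyond a dashed line.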

How the data were processed

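RNA-Seq was measured in 4 libraries, grouped by their labels. The authors enriched poly(A) RNA with oligo(dT), sequenced on the DNBseq platform, mapped reads against the hg19 build using HISAT2 version 2.1.0, and deposited raw counts per gene from HTSeq, with strand not used per the file names. Reads on more than 1 gene are left out by such counting. A combined table differed from the library files in 0 cells. The 5 summary lines of each file entered no total and no test (no feature, 3.81% to 4.06% of entries, and ambiguous, 9.82% to 10.4%).

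Counts of all genes were fitted with edgeR (version 4.0.16, R version 4.3.3; trimmed mean of M values, robust quasi-likelihood, filterByExpr with minimum count 10 and total 15), with no covariate. The study itself used DESeq2 (version 1.42.0 here, as an alternative). The fit was tested on simulated data. SE is the absolute log2 fold change divided by the root of F. Replicates differed beyond sampling noise (chi-square per degree of freedom 2.44 and 3.58). With 2 libraries a group the smallest p of a 2-sided permutation test is 0.333, so none was run. Intervals at 95% and floors of 3 counts cover these libraries and counting error only.

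Symbols came from Ensembl identifiers (59899 matched, 981 did not). Coordinates, exon lengths and exon overlap came from GENCODE release 44 on GRCh37, a later release than the one counted. Members and lists were chosen with earlier results of these data known. The 13 other lists were written by hand. Named genes are all 10 members, UGT2B17 and, per list, the 4 tested genes with the smallest adjusted p and all called genes where they are 4 or fewer. Outside the rule, genes whose exons overlap a member (FNTB, PRELID1, RAB24 and MYCNOS) and listed genes at or near 0 counts were named after their values were seen, and others are stated to be so where named. Some genes that the rule names are not reported here.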

Additional observations from a re-analysis of the deposited data

Results flagged for a closer look

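Unaligned reads, which are listed in the summary lines and enter no comparison, reached 7.707% in the lower of the LN95(KO) libraries against 3.96% in the higher of the LNCaP95 libraries, with no overlap between the groups. Their part in the values of the network genes was not tested.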

How the results depend on the processing

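No paired analysis was possible because LNCaP95 carries numbers 1 and 2 and LN95(KO) numbers 3 and 4. The count of 3 called members was 3 under RLE factors, library totals, upper-quartile factors, no filter, DESeq2, non-robust dispersions, glmTreat against a 2-fold change and each fit without 1 library (3 to 3), always 2 higher and 1 lower. It was 7 without the fold criterion (3 higher, 4 lower), which follows from the looser rule. Over all genes, 2811 were called, 1687 under glmTreat and 9349 without the fold criterion, and 2539 to 2777 without 1 library. The log2 fold change of MYC turned sign with library totals (0.0403) and ranged from -0.05 to 0.04 over all alternatives. Without 1 library it ranged from -0.0328 to 0.0015, and that of MNT from -0.0326 (without LN95(KO) replicate 3) to 0.2174 (without LN95(KO) replicate 4). The cause was not tested for either. The estimates for MYCN, MYCL, MAX, MXD1, MXI1, MXD3, MXD4 and MGA kept their sign in all 10 fits. Lists with few calls moved with single settings: germ cell genes had 1 call under library totals, with no filter, without LNCaP95 replicate 2 and without LN95(KO) replicate 4, and nucleolar targets had 2 without LN95(KO) replicate 3. The list of genes repressed by MYC, with or without MIZ1, had 2 calls with no filter. Its number of calls also moved in the fit without LNCaP95 replicate 1. Neighbours of the MYC loci had 0 under glmTreat, and the metabolism list had 3 under glmTreat in place of 5. Using the longest transcript in place of the union of exons raised every RPKM value above 0, since it is the shorter length, and left the log2 ratio of MYC genes to repressors at 0.56 in LNCaP95 and 0.74 in LN95(KO). Depth limits MYCN, whose fall rests on 32 and 19 counts in LNCaP95.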
